A study of Mus musculus with 6 samples.

Results

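The receptors through which steroid hormones reach genes, the related orphan receptors and the proteins that assist them were examined in the ventromedial hypothalamus (VMH) of FoxO1 knockout mice (KO) and wild-type mice (WT). The set held 9 of the 19057 genes named on the array: Esr1, Pgr, Nr3c1, Nr3c2, Esrra, Esrrg, Ncoa1, Ncoa2 and Nr0b1. It was chosen by gene symbol, and all 21 probes annotated to these symbols, of 45281 probes on the array, were read. KO carried a knockout of FoxO1 that the labels call specific to the VMH, and both genotypes were of a strain background given as mixed. Neither had been treated. Each genotype was represented by 3 Illumina Mouse-6 V2 BeadChips, and every array carried a pool of RNA from 3 animals, which is the replicate here. The labels used here do not give the sex or the age of the animals, nor the driver of the deletion.

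Steroid receptors are transcription factors that bind a hormone, move to DNA and recruit coactivators, which open chromatin and pass the signal on to transcription. Estrogen and progesterone receptors mark neurons of the ventrolateral VMH, where they take part in mating behaviour and, for the estrogen receptor, in energy expenditure. The glucocorticoid and mineralocorticoid receptors sense the adrenal steroids. The estrogen-related receptors resemble the estrogen receptor in sequence, have no known natural steroid ligand and drive genes of mitochondrial metabolism. FoxO1, a forkhead transcription factor, leaves the cell nucleus when insulin acts. The comparison asked whether loss of FoxO1 altered the transcripts of these genes.

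None of the genes passed the test. The differences that were furthest from 0 were those of the coactivator Ncoa2, 0.71 log2 lower in KO, and of the estrogen receptor Esr1, 0.52 log2 lower in KO. Those of Pgr, Nr3c1, Esrra and Esrrg lay between -0.13 and 0.17 log2. No probe of Nr3c2, Ncoa1 or Nr0b1 was detected on any array. In bulk RNA, fewer cells of a type and less RNA per cell cannot be told apart.

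The forkhead core AAACA, read on both strands, was looked for in the promoter windows of these genes because FoxO1 binds such letters. RefSeq (GRCm38.p6) gave 11 windows for 7 of the 9 genes, each reaching from 250 bases before to 50 bases after a transcription start, and no window was used for Nr3c1 or Ncoa2. The core stood in 6 of the 11 windows, those of Esr1, Pgr, Esrra, Nr3c2 and Nr0b1, against 50.5% of all 32851 windows. The longer site GTAAACA, which contains the core, was in 0 of the 11 windows and in 3.65% of all. The insulin response core CAAAACA, which also contains it, was in the Esrra window alone and in 6.28% of all. The 4 windows of genes with a detected probe that hold the core are shown, with the matching letters in capitals. They are the windows of Esr1 at chr10:4611739-4612038 and chr10:4709908-4710207 (both plus strand), of Pgr at chr9:8899583-8899882 (plus strand) and of Esrra at chr19:6921759-6922058 (minus strand).
Esr1 upstream start: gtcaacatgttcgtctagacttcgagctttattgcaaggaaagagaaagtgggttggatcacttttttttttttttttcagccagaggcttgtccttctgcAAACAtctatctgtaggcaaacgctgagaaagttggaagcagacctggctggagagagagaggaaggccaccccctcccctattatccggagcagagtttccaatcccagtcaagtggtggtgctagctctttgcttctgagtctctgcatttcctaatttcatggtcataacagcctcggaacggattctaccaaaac
Esr1 downstream start: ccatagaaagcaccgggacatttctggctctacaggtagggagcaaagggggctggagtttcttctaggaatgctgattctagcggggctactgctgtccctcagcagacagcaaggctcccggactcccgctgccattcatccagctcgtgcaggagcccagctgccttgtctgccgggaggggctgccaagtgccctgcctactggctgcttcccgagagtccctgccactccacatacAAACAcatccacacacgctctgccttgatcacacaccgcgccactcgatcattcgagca
Pgr: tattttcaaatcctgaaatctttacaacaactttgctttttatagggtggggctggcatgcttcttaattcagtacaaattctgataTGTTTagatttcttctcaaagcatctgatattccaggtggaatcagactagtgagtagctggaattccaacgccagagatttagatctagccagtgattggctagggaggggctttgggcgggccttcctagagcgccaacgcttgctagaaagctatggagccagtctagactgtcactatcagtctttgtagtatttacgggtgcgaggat
Esrra: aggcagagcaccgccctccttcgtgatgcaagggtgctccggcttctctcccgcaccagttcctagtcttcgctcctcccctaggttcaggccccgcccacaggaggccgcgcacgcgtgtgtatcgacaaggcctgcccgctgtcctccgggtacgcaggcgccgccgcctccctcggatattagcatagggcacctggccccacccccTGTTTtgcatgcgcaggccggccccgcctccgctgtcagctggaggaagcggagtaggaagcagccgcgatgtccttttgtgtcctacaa
The letters TGTTT in the Pgr and Esrra windows are the core on the opposite strand, and in Esrra they run on into TGTTTTG, the insulin response core read the same way. The letters AGGTCA, which many nuclear receptors bind, were in 1 of the 11 windows, that of Nr0b1, and in 16.3% of all; AAGGTCA, which contains them and is bound by SF-1 and the estrogen-related receptors, was in 0 and in 4.72% of all. The palindromic estrogen response element was in 0 of them and in 0.07% of all. The letters TGTTCT, part of the glucocorticoid response element, were in 1, that of Ncoa1, and in 19% of all. Both strands were read for each. The matches describe letters only.

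Values are log2 signals after background correction and normalisation, and a probe was called detected on an array at a detection p under 0.05. The number of detected probes was lowest on KO 1, at 18771, and highest on WT 1, at 20445. Testing with limma covered the 20006 probes that 3 or more arrays detected, and p-values were adjusted by Benjamini-Hochberg over all of them. A single probe, or 0.005%, passed an adjusted p of 0.05. Correlation with the remaining arrays averaged 0.954 for KO 1 and 0.977 to 0.981 for each of the others. KO 1 was the lowest of the 6 arrays for 33% of tested probes and the highest for 36.7%. The targeted gene Foxo1 was read by 2 tested probes. The brighter (ILMN_2656498) had 6.47, 7.29 and 7.25 in KO, against 7.62, 7.49 and 7.84 in WT, a difference of -0.65 (SE 0.24; limma adjusted p = 0.582). The dimmer (ILMN_2509340) was detected on 4 arrays and had 5.07, 6.03 and 6.42 in KO, against 5.71, 5.04 and 5.76 in WT. Its difference had the opposite sign, 0.34 (SE 0.35, limma adjusted p = 0.677), and the genotypes overlapped. Where these probes lie with respect to the deletion was not known here, so neither checks the genotype labels.

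Markers of the tissue, of its neighbours and of other cells and tissues were read beside the receptors. All 8 VMH markers were detected, among them Nr5a1, which encodes SF-1, and Slc17a6, the vesicular glutamate transporter of VMH neurons. Their list mean was 9.74, 10.31 and 9.94 in KO and reached 10.24 in WT, and the genotypes overlapped (KO minus WT -0.13; two-sided exact permutation p = 0.6). That difference was -0.0036 without KO 1 and -0.29 without KO 2. It averages genes that went either way. Cckbr (-0.76), Nkx2-1 (-0.55), Sox14 (-0.32), Fezf1 (-0.093) and Slc17a6 (-0.054) were lower in KO. Bdnf (0.54), Nr5a1 (0.13) and Adcyap1 (0.056) were higher. The limma adjusted p was 0.582 for Cckbr and for Bdnf. The RNA also held 5 arcuate markers with a probe, Npy and Pomc included, at a list mean of 7.65 to 8.34 in KO and of 7.91 to 8.04 in WT. Of 6 pituitary markers with a named probe none was tested, and Cga, Fshb, Lhb, Prl and Tshb were detected on no array. The remaining one, Gh, was detected, but on too few arrays for a test. The 5 microglial markers had a list mean of 7.47 to 7.75 in KO and of 7.11 to 7.44 in WT, and the 3 blood markers one of 8.18 to 8.67 in KO and of 7.25 to 7.58 in WT. Both lists stood higher on each KO array than on each WT array (two-sided exact permutation p = 0.1 for each, the smallest that 3 against 3 allow, and 0.35 after adjustment over 7 lists). The microglial genes were not alike: Csf1r differed by -0.12, and the others by 0.24 (Tmem119) to 0.68 (P2ry12). In blood, Hba-a1 differed by 0.42, Alas2 by 0.66 and Hbb-b2 by 1.77. Hbb-b2 had 4.83 on WT 1 and 4.80 on WT 2, under the smallest level called detected, 5.28. The 8 exocrine pancreas markers, of a tissue outside the brain, had a list mean of 9.40 to 11.98 in KO and of 8.63 to 11.57 in WT. Their mean was highest on KO 1 and lowest on WT 2, and where these transcripts came from was not tested. The astrocyte mean differed by 0.13 and the oligodendrocyte mean by 0.16 (two-sided exact permutation p = 0.2 and 0.4), and the oligodendrocyte difference was 0.024 without KO 1 and 0.26 without KO 2. The part of these markers in the results below was not tested.

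Of the 21 probes, 6 were detected on all 6 arrays, 2 on 5 arrays, 1 on a single array and 12 on none. The 8 probes that could be tested are 38.1% of the set, against 44.2% of all probes on the array, and they stand for 6 of the 9 genes. All 8 belong to the 15 probes annotated to a RefSeq mRNA, whereas 0 of the 6 probes annotated to a cDNA clone could be tested. Over the whole array 50.1% of the probes with a RefSeq mRNA and 35.9% of the named probes without a RefSeq record could be tested. Esr1 and Ncoa2 show the spread within a gene: 1 of 4 Esr1 probes and 1 of 5 Ncoa2 probes were tested. The probes without a test lay between 4.42 and 5.56 on every array.

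**Figure D1:**
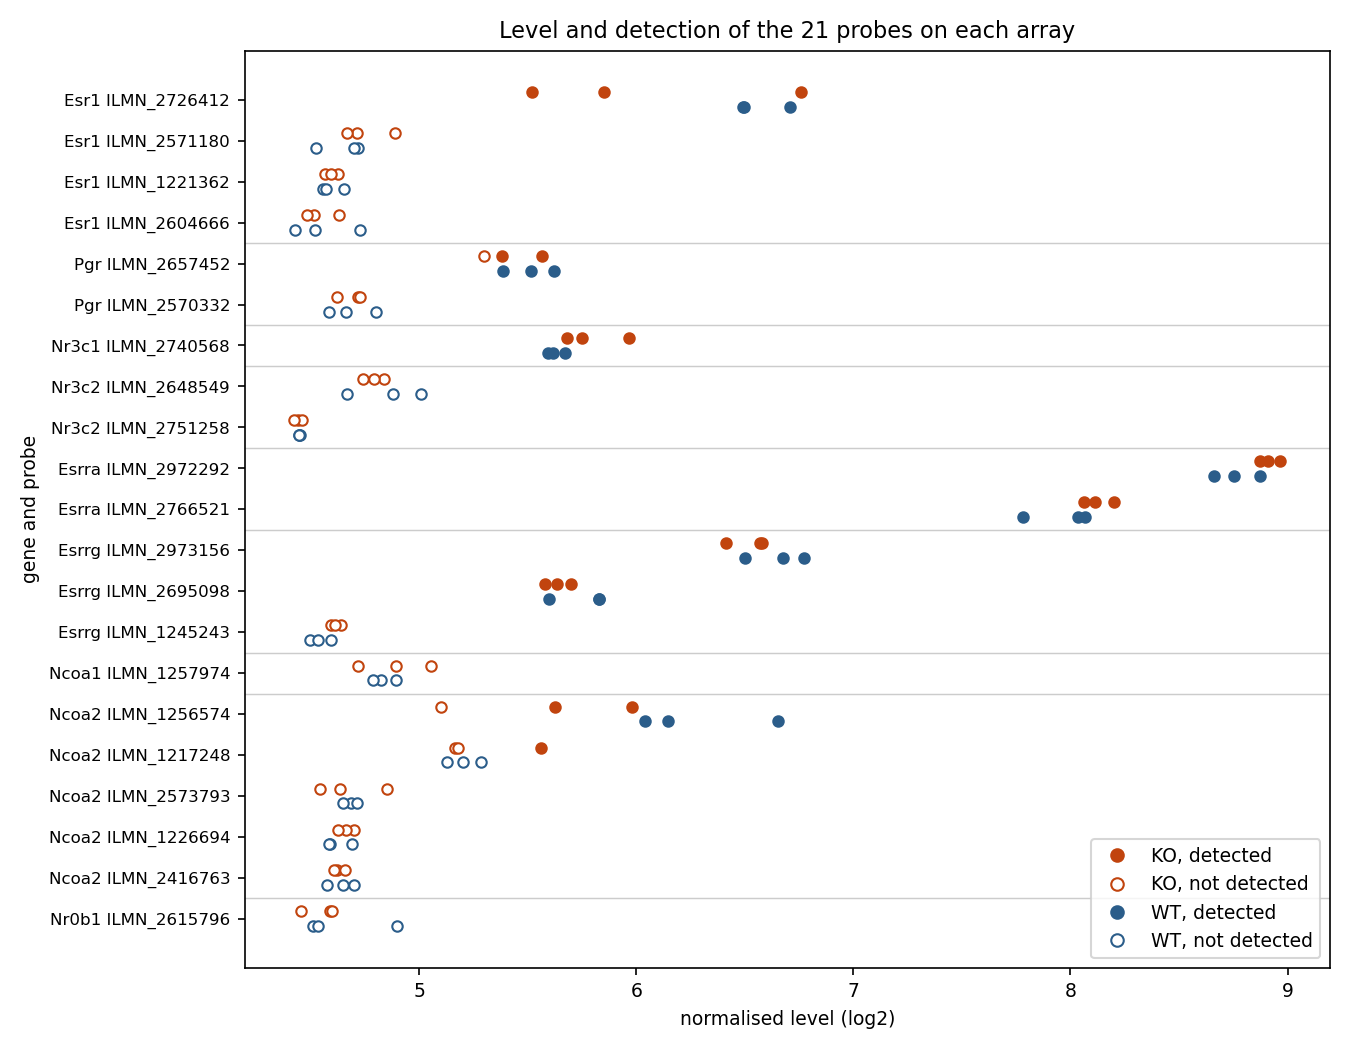
Normalised level (log2, horizontal axis) of the 21 probes on each of 3 KO arrays (orange, upper row of each probe) and 3 WT arrays (blue, lower row), with filled points where the probe was detected and open points where it was not. The 12 probes detected on no array sit at the left edge, up to 5.06, and the Esrra probes sit at the right, between 7.78 and 8.97.

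Among the receptors for sex steroids, Esr1, which encodes estrogen receptor alpha, was read by ILMN_2726412. It had 5.52, 6.76 and 5.85 in KO, against 6.49, 6.49 and 6.71 in WT. KO 2 was the highest of the 6 arrays and KO 1 the lowest, so the genotypes overlapped. The KO mean was 6.04 ± 0.64 and the WT mean 6.56 ± 0.12 (SD, n = 3 each), and the spread in KO exceeded that in WT. The difference was -0.52 (SE 0.29), or 1.43-fold lower in KO, with a 95% interval of -1.19 to 0.15 (limma adjusted p = 0.582; unadjusted p = 0.111). In deposited signal, where the lowest probe of each array reads 111.3, the values were 172.5, 235.3 and 184.7 in KO, against 217.2, 217.0 and 231.5 in WT. On that uncorrected scale the log2 difference was -0.18. The difference was -0.26 without KO 1 and -0.88 without KO 2. The other Esr1 probes, ILMN_2571180, ILMN_1221362 and ILMN_2604666, were detected on 0 arrays and lay between 4.43 and 4.89.

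Pgr encodes the progesterone receptor, which estrogen induces in the VMH. Its probe ILMN_2657452 had 5.30, 5.57 and 5.38 in KO, against 5.62, 5.52 and 5.39 in WT. All WT arrays and 2 KO arrays detected it, and it missed the detection limit on KO 1, with a detection p of 0.0748. The genotypes overlapped. The KO mean was 5.42 ± 0.14 and the WT mean 5.51 ± 0.12 (SD, n = 3 each), a difference of -0.093 (SE 0.16) with a 95% interval of -0.45 to 0.26 (limma adjusted p = 0.802). The difference was -0.034 without KO 1 and -0.037 without WT 1, and it was -0.17 without KO 2 and -0.15 without WT 3. The other Pgr probe, ILMN_2570332, was detected on 0 arrays.

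Of the receptors for adrenal steroids, Nr3c1 encodes the glucocorticoid receptor and had 1 probe, ILMN_2740568. Its levels were 5.75, 5.68 and 5.97 in KO, against 5.67, 5.62 and 5.59 in WT. The genotypes did not overlap, with KO higher, and the probe was detected on all 6 arrays at a detection p of 0.0128 to 0.0267. The KO mean was 5.80 ± 0.15 and the WT mean 5.63 ± 0.04 (SD, n = 3 each). The difference of 0.17 (SE 0.15) had a 95% interval of -0.17 to 0.52 (limma adjusted p = 0.635). It was 0.091 without KO 3, and 0.053 on the deposited signal without background correction. Nr3c2, which encodes the mineralocorticoid receptor, was read by ILMN_2648549 at 4.74, 4.84 and 4.79 in KO and 4.67, 4.88 and 5.01 in WT. Neither this probe nor ILMN_2751258 was detected on any array (lowest detection p 0.13, on WT 3), so no difference could be measured at this signal.

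The estrogen-related receptors were the only receptors here with more than 1 tested probe, and the probes of each gene pointed the same way. Esrra encodes the alpha form. ILMN_2972292 had 8.97, 8.91 and 8.87 in KO, against 8.75, 8.87 and 8.66 in WT. The lowest KO array, KO 3, and the highest WT array, WT 2, carried the same deposited signal of 595.5, and the other KO arrays lay above every WT array. The KO mean was 8.92 ± 0.05 and the WT mean 8.76 ± 0.11 (SD, n = 3 each), a difference of 0.16 (SE 0.15; 95% interval -0.18 to 0.49; limma adjusted p = 0.653). ILMN_2766521 had 8.20, 8.11 and 8.06 in KO, against 7.78, 8.07 and 8.04 in WT. Its difference was 0.16 (SE 0.15; limma adjusted p = 0.655), and KO 3 lay just below WT 2.

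Esrrg encodes the gamma form. ILMN_2973156 had 6.57, 6.58 and 6.41 in KO, against 6.50, 6.68 and 6.77 in WT, and the genotypes overlapped. The KO mean was 6.52 ± 0.09 and the WT mean 6.65 ± 0.14 (SD, n = 3 each). The difference was -0.13 (SE 0.15; 95% interval -0.48 to 0.22; limma adjusted p = 0.718), and it was -0.068 without WT 3, -0.076 without KO 3 and -0.20 without WT 1. ILMN_2695098 had 5.64, 5.70 and 5.58 in KO, against 5.83, 5.83 and 5.60 in WT, with a difference of -0.11 (SE 0.15; limma adjusted p = 0.749). WT 3 lay among the KO arrays on this probe. The remaining Esrrg probe, ILMN_1245243, was detected on 0 arrays.

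**Figure D2:**
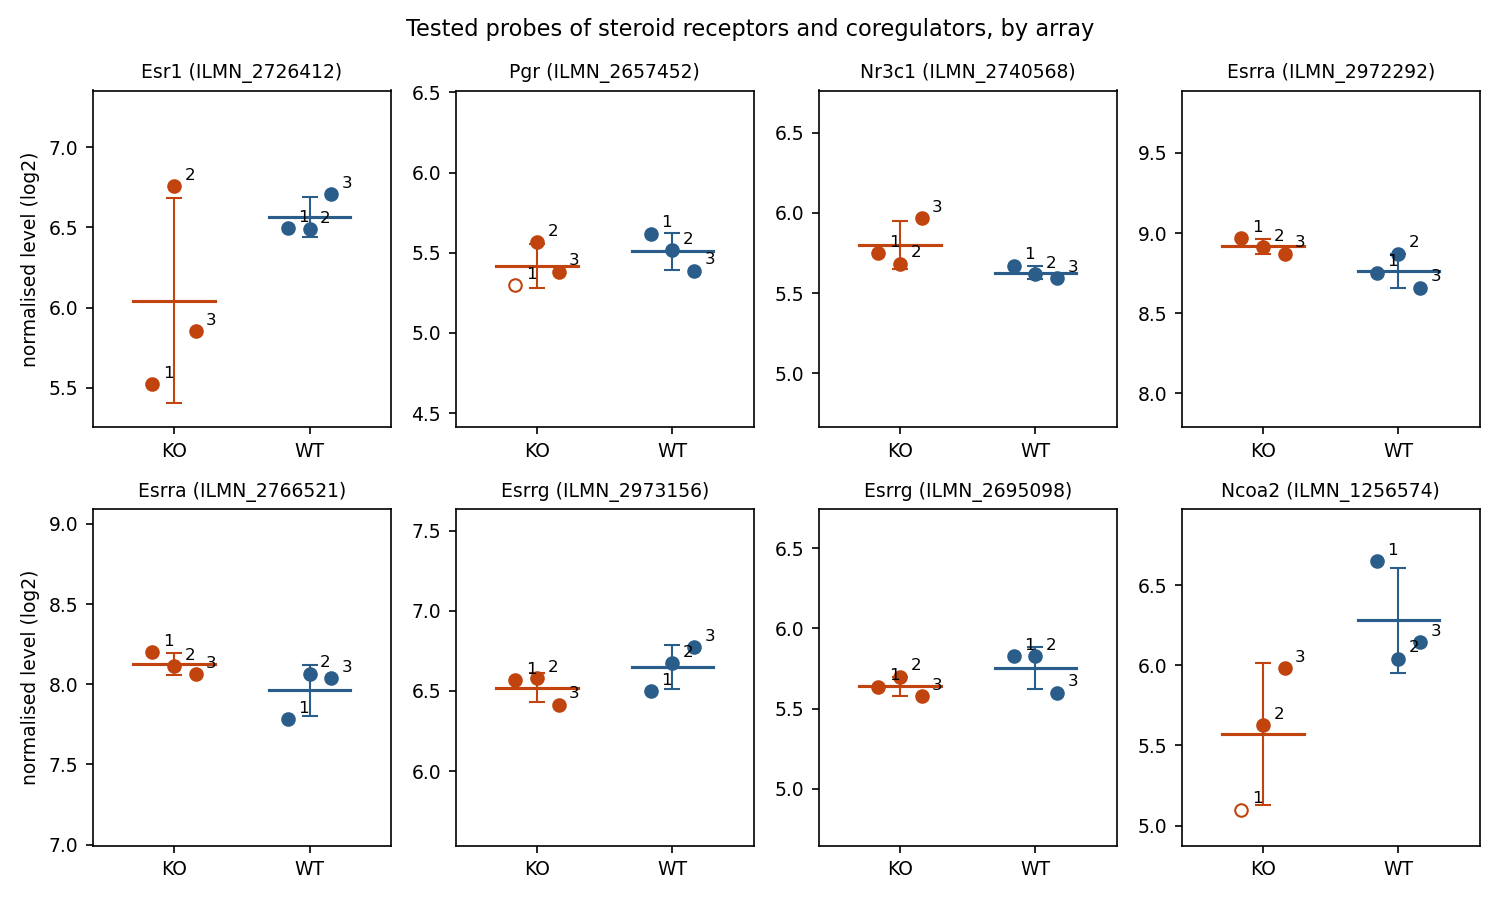
Normalised level (log2, vertical axis, each panel spanning the same range) of the 8 tested probes on the KO arrays (orange, left) and WT arrays (blue, right), numbered by replicate, with open points where the probe was not detected, lines at the mean and bars of 1 SD (n = 3). The KO arrays of Esr1 run from 5.52 to 6.76, and those of Ncoa2 lie below all WT arrays, whose lowest is 6.04.

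The coactivators of the p160 family bind hormone-loaded receptors and bring in enzymes that modify histones. Ncoa2, also called SRC-2, was read by ILMN_1256574 at 5.10, 5.63 and 5.98 in KO, against 6.65, 6.04 and 6.15 in WT. The genotypes did not overlap, with KO lower. The probe was not detected on KO 1, where its detection p was 0.138. The KO mean was 5.57 ± 0.44 and the WT mean 6.28 ± 0.33 (SD, n = 3 each). The difference was -0.71 (SE 0.26), or 1.64-fold lower in KO, with a 95% interval of -1.30 to -0.12. Its unadjusted p of 0.0235 ranked 527 among the 20006 tested probes, and the difference did not pass after adjustment (limma adjusted p = 0.582). It was -0.48 without KO 1 and -0.29 when WT 1 was dropped too, and -0.24 on the uncorrected signal.

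The 4 other Ncoa2 probes had no counterpart to this difference that could be tested. ILMN_1217248 was detected only on KO 3, and read 5.17, 5.18 and 5.56 in KO, against 5.13, 5.20 and 5.29 in WT. ILMN_2573793, ILMN_1226694 and ILMN_2416763 were detected on 0 arrays and lay between 4.54 and 4.85. Ncoa1, also called SRC-1, had a single probe (ILMN_1257974) at 5.06, 4.72 and 4.89 in KO and 4.82, 4.89 and 4.79 in WT, and it was detected on no array. Nr0b1 encodes DAX-1, an orphan receptor without a DNA-binding zinc finger domain that restrains SF-1. Its probe ILMN_2615796 had 4.59, 4.60 and 4.46 in KO and 4.90, 4.51 and 4.53 in WT, also detected on no array.

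Set against all tested probes, the steroid receptor and coregulator probes held 0 of 8 past an adjusted p of 0.05, where 0.005% of all tested probes passed. At an unadjusted p under 0.05 there was 1 of 8, the Ncoa2 probe, against 7.58% of all. It was lower in KO, as were 3.8% of all, and 0 of 8 were higher, against 3.77% of all. The KO and WT arrays did not overlap for 2 of 8, against 15.1% of all. They were Ncoa2, below WT (6.24% of all), and Nr3c1, above WT (8.84% of all). By any amount, 5 of the 8 probes were lower in KO, against 47.1% of all, and 3 were higher, against 52.9%. With 1 probe per gene, the median difference of the 6 genes was -0.11, and that of all 10825 tested genes was 0.019. With 8 probes, counts this near the background are no result about the set. The 95% intervals of Pgr, Nr3c1, Esrra and Esrrg lay between 0.717 and 1.43 times the WT level of corrected signal. Pgr (5.30 to 5.62) and Nr3c1 (5.59 to 5.97) were read close to 5.28, the smallest level called detected. So near the floor, their intervals set no bound on the change in transcript. That of Esr1 ran from 0.438 to 1.11 times and that of Ncoa2 from 0.406 to 0.919 times the WT level.

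**Figure D3:**
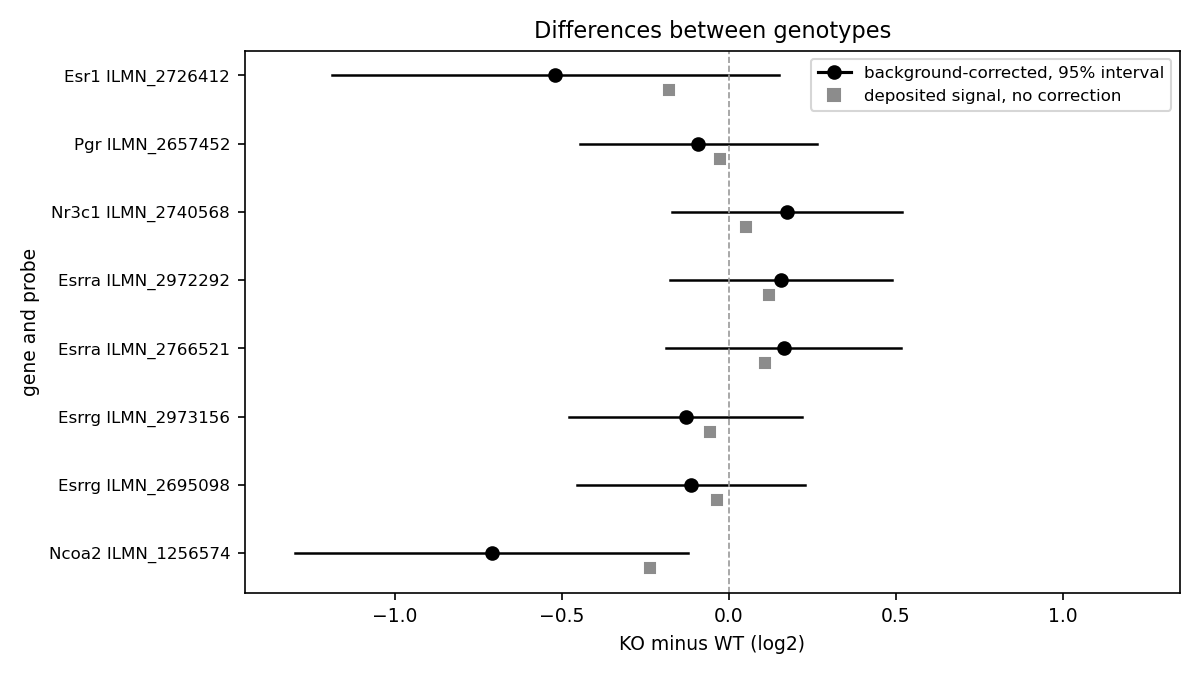
Difference between KO and WT (log2, horizontal axis) of the 8 tested probes, with circles and 95% intervals after background correction and grey squares on the deposited signal without it. The interval of Ncoa2 runs from -1.30 to -0.12, those of the other probes include 0, and the uncorrected differences of Esr1 and Ncoa2 are -0.18 and -0.24.

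How far a value rested on 1 pool differed between genes. For Esr1 the difference ran from -0.88 (without KO 2) to -0.26 (without KO 1) when each array was left out in turn, and for Ncoa2 from -0.92 (without KO 3) to -0.48 (without KO 1). For Esrra it ran from 0.10 to 0.21. The adjusted p of every one of these 6 genes stayed above the threshold with each array left out. KO 1 was the lowest array for Esr1, Pgr and Ncoa2, and for the brighter Foxo1 probe. On each Esrra probe KO 1 was the highest array. Across all tested probes it held the lowest value for 33% and the highest for 36.7%.

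**Figure D4:**
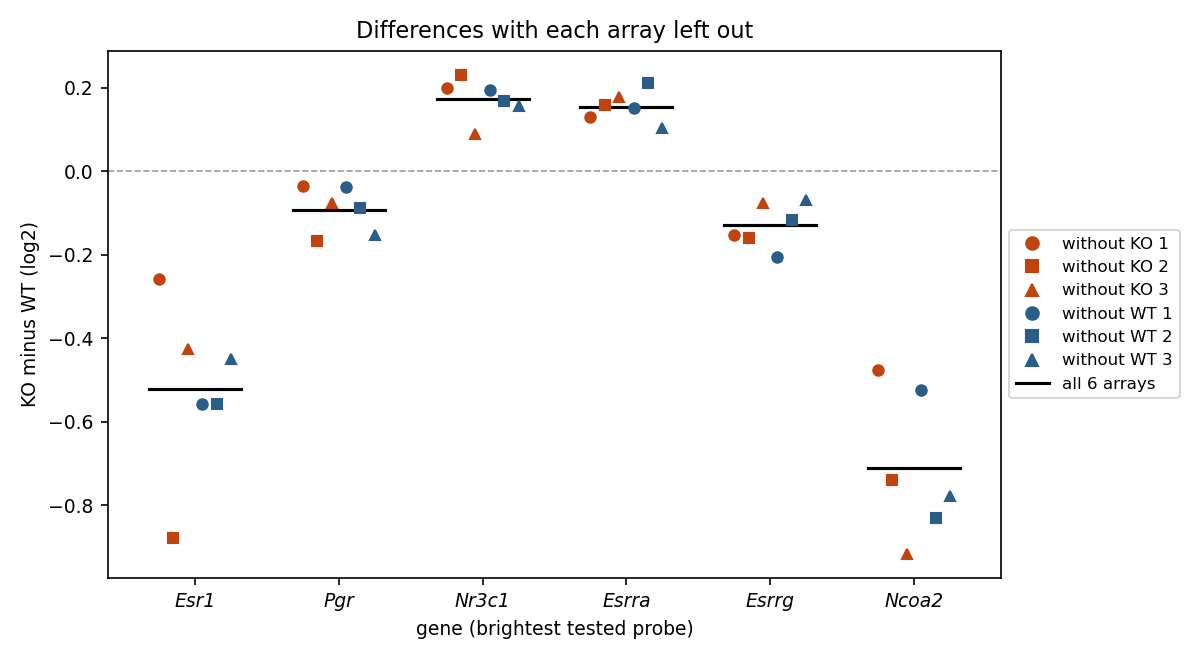
Difference between KO and WT (log2, vertical axis) of the brightest tested probe of each gene with all 6 arrays (black line) and with each array left out (orange for a KO array, blue for a WT array, shape by replicate number). Esr1 and Ncoa2 stay below 0 and move most, Esr1 between -0.88 and -0.26, and Nr3c1 and Esrra stay above 0.

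The wider steroid pathway was read from 6 lists with 59 genes, of which 52 had a named probe and 43 could be tested. None of the 43 passed an adjusted p of 0.05, nor did any of the 10825 tested genes (0.005% of tested probes passed). By the brightest probe of each gene, only 1 of the 43, Lcor, was past an unadjusted p of 0.05, with KO lower. Of the 10825 tested genes 305 were past it with KO lower and 383 with KO higher, and of all tested probes 7.58% were past it. Dimmer probes past it were Greb1 ILMN_3006587 (-0.79, limma unadjusted p = 0.0315) and Pgrmc2 ILMN_1251169 (0.41, limma unadjusted p = 0.0354). Each had an adjusted p of 0.582. The median difference of the 43 genes was -0.020, against 0.019 over all tested genes. Of the other steroid and related receptors 5 of 9 were tested, 2 with a positive and 3 with a negative difference. Among all tested genes 47.4% were negative. The membrane estrogen receptor gene Gper1 differed by -0.29 (SE 0.17; limma adjusted p = 0.582) and Nr5a1 by 0.13 (SE 0.21), where its other probe differed by -0.19. Esr2, the beta form of the estrogen receptor, had no tested probe.

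Chaperones that hold steroid receptors ready for hormone were positive in 7 of 8 tested genes, with a median of 0.084. Over the array 5695 of the 10825 tested genes were positive. Hsp90aa1, which encodes an inducible HSP90, had 11.51, 10.99 and 10.88 in KO, against 10.80, 10.66 and 10.70 in WT, a difference of 0.41 (SE 0.19; limma adjusted p = 0.582). On this probe its KO arrays lay above its WT arrays, as for 8.84% of all tested probes. Its dimmer probe (ILMN_2752883) differed by 0.62 (SE 0.28, limma adjusted p = 0.582), and there the genotypes overlapped. Fkbp4, an immunophilin that helps the progesterone and glucocorticoid receptors, differed by 0.12. Without KO 1 the median of the list was 0.034.

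Coactivators outside the set were negative in 9 of 12 tested genes, with a median of -0.24, where 47.4% of all tested genes were negative. Ep300, a histone acetyltransferase that receptors recruit, had 8.65, 9.70 and 9.68 in KO, against 9.79, 9.68 and 9.95 in WT, a difference of -0.46 (SE 0.28; limma adjusted p = 0.582). KO 1 lay well below every other array, KO 2 lay among the WT arrays, and KO 3 was level with WT 2, the lowest of WT. Ppargc1a, the partner of the estrogen-related receptors, differed by -0.23 (SE 0.16; limma adjusted p = 0.598). Relative to the 6-array mean, the median gene of the list lay at -0.44 in KO 1, 0.0024 in KO 3 and 0.16 in KO 2, against 0.080 to 0.12 in the WT arrays. Without KO 1 the median difference was -0.011, with 7 of 12 genes negative.

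Corepressors were negative in 4 of 5 tested genes, with a median of -0.11, where 47.4% of all tested genes were negative. Lcor, a corepressor that binds hormone-loaded receptors, had 6.99, 6.82 and 7.24 in KO, against 7.71, 7.44 and 7.43 in WT. The genotypes did not overlap, with KO lower, as for 6.24% of all tested probes. The difference was -0.51 (SE 0.17; limma adjusted p = 0.582; unadjusted p = 0.0173). Sin3a, the scaffold of a histone deacetylase complex, differed by -0.26 (SE 0.17). The list's median was -0.042 without KO 1.

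Enzymes that make or convert steroids were positive in 3 of 5 tested genes, with a median of 0.22. Of the 10825 tested genes 5695 were positive. Hsd11b1, which regenerates active glucocorticoid inside cells, had 10.58, 9.17 and 9.09 in KO, against 9.38, 9.08 and 8.77 in WT, a difference of 0.54 (SE 0.38; limma adjusted p = 0.596). KO 1 stood more than 1 log2 unit above the other arrays. Hsd3b2, one of several closely similar mouse genes whose transcripts a probe may share, differed by -0.50 (SE 0.24; limma adjusted p = 0.582). Without KO 1 the median of the list was 0.0028. Known responders to estrogen or progesterone gave 5 positive and 3 negative differences among 8 tested genes, with a median of 0.044. Irs1, which encodes an insulin receptor substrate, had 5.82, 5.53 and 5.01 in KO, against 5.86, 5.92 and 5.92 in WT, a difference of -0.44 (SE 0.21). Tac1, which encodes substance P and marks neurons of the ventrolateral VMH, had 11.60, 11.60 and 11.85 in KO, against 11.17, 11.46 and 11.48 in WT, a difference of 0.32 (SE 0.16). For both genes the genotypes did not overlap (15.1% of all tested probes do not) and the adjusted p was 0.582 with limma.

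**Figure D5:**
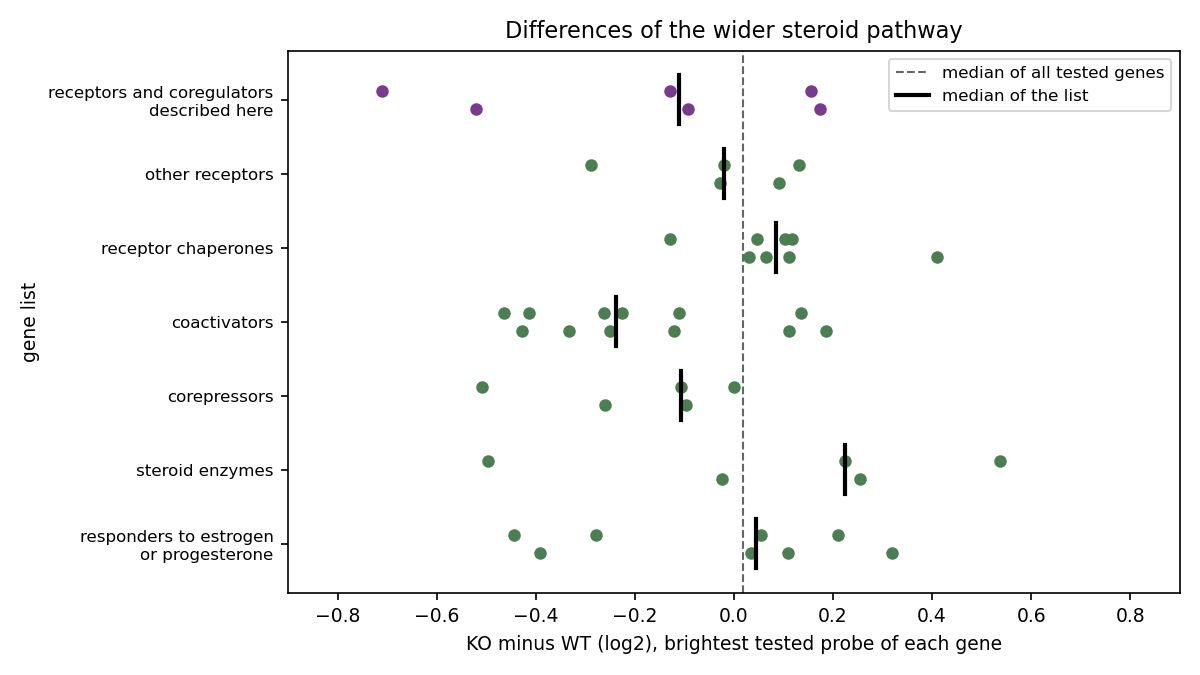
Difference between KO and WT (log2, horizontal axis) of the brightest tested probe of each gene, for the steroid receptors and coregulators described here (purple) and the 6 wider lists (green), with black bars at the list medians and a dashed line at 0.019, the median of all tested genes. Coactivators have the lowest list median, -0.24, and no gene shown passed the test.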

How the data were processed

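Signals of 6 Illumina BeadChips, 3 KO and 3 WT, were analysed. Groups follow the sample titles. Per the series' design text each array carries RNA pooled from 3 animals, and Partek Genomics Suite 6.5 was used. No label used here links equal replicate numbers of KO and WT.

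The deposited table holds probe intensity and a detection p-value per array, per the file headers; the basis of the detection p was not stated. These deposited intensity values came quantile-normalized, since ranked signals match between arrays to within 0.4. The authors' value table, on a log2 scale, equals the log2 of these signals within 5e-05. Array number limits the precision.

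With limma 3.58.1 in R 4.3.3, neqc estimated background from the detection p (normexp, offset of 16), applied quantile normalization and took log2. This widens differences between dim probes. Testing took probes detected (p under 0.05) by 3 arrays or more (lmFit, eBayes, 2-sided, no covariates, Benjamini-Hochberg over all tested probes), after a test of the fit on simulated data. Of all probes 34885 had 1 gene symbol, 18 several and 10378 none here; older symbols were replaced by those of RefSeq (GRCm38.p6), matched by Entrez identifier. For a gene, the probe with the highest mean stands. The array files name no build, so probes have no positions here. Named genes are all probes of the 9 members and of Foxo1, and from each wider list the 2 tested genes with the smallest p, since none passed; other genes are named after their values were seen. Members and lists were chosen with earlier results of these data known.

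Alternatives were the authors' table, no background correction, cyclic loess, median scaling, an offset of 50, no filter, a strict filter (6 arrays, detection p under 0.01), an intensity trend, array weights, a replicate block, an unadjusted threshold, the mean over probes and arrays left out.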

Additional observations from a re-analysis of the deposited data

How the results depend on the processing

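Of 104 recomputed differences of the 6 steroid receptor and coregulator genes under the alternatives, 103 kept their sign and 0 passed an adjusted p of 0.05. The exception was Pgr, at 0.022 without both arrays numbered 1. Many of the 104 signs could not change. The 2 filters, the intensity trend and the replicate block alter the test and leave the difference as it was. So does the mean over probes for a gene with 1 tested probe. The authors' table repeats the uncorrected signal. The count of kept signs is therefore no measure of robustness. The count of these probes past the threshold stayed at 0 under each alternative with an adjusted threshold and was 1 at an unadjusted p under 0.05. Over all tested probes 1 passed; 0 passed without background correction, with the authors' value table, an offset of 50, the strict filter, no filter, cyclic loess, an intensity trend or the replicate block, 0 to 1 with single arrays left out, and 1516 at an unadjusted p under 0.05. The strict filter left Esrra and Esrrg, with a median of 0.013 against -0.11 for the 6 genes. Without background correction the differences of Esr1, Pgr, Nr3c1, Esrrg and Ncoa2 were -0.18, -0.027, 0.053, -0.056 and -0.24, closer to 0 than after correction. With the replicate block the adjusted p was 0.488 for Esr1 and 0.485 for Ncoa2. Deviations of same-numbered arrays correlated at 0.146, 0.00365 and 0.402. KO 1 and KO 3 each correlated best with the WT array of their number, and WT 1 and WT 3 did so in turn. KO 2 lay between -0.0024 and 0.00365 with every WT array, which shows no preference. Deviations were taken from the group means, so these correlations are not independent of each other. WT 2 correlated best with KO 1, at 0.104. The labels give no pairing, so the main fit did not use the numbers, whereas the replicate block did. Among marker lists, settings chosen after seeing the data, the arcuate difference of -0.068 ran from -0.28 to 0.069 and the pancreas difference of 0.49 from -0.31 to 1.17 with single arrays left out. The VMH difference of -0.13 ran from -0.29 to -0.0036 and the oligodendrocyte difference of 0.16 from 0.024 to 0.26. Without background correction the microglial difference was 0.18 in place of 0.34 and the blood difference 0.42 in place of 0.95. The signal over background limits Nr3c2, Ncoa1 and Nr0b1, for which no difference could be measured.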

Other observations

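The 5 arcuate markers, which include genes of kisspeptin neurons that carry estrogen receptor alpha, are described after their values were seen. Kiss1, which encodes kisspeptin and is restrained by estrogen in the arcuate nucleus, had 6.95, 6.34 and 6.23 in KO, against 5.85, 5.41 and 6.13 in WT. The genotypes did not overlap, with KO higher, and the difference was 0.71 (SE 0.25; limma adjusted p = 0.582; unadjusted p = 0.021). Among all tested probes 8.84% had every KO array above every WT array. Kiss1 was the only one of the 5 arcuate markers that was higher in KO. Tac2, which encodes neurokinin B in the same neurons, had 6.91, 6.48 and 6.74 in KO, against 7.13, 6.88 and 7.05 in WT, a difference of -0.31 (SE 0.17; limma adjusted p = 0.582). Npy, which encodes the appetite-stimulating neuropeptide Y, had 8.11, 7.97 and 7.61 in KO, against 8.33, 8.23 and 8.56 in WT. Its genotypes did not overlap, with KO lower (6.24% of all tested probes), and the difference was -0.48 (SE 0.18; limma adjusted p = 0.582; unadjusted p = 0.0305). Ghrh differed by -0.20 and Pomc by -0.059, with overlapping genotypes.

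Greb1, a gene that estrogen induces in human breast cancer cells, was also named after its values were seen. Its brighter probe (ILMN_2433318) had 5.52, 6.54 and 6.42 in KO, against 6.93, 6.04 and 6.68 in WT, a difference of -0.39 (SE 0.32; limma adjusted p = 0.624). The dimmer one (ILMN_3006587) had 4.75, 5.65 and 5.11 in KO, against 6.48, 5.44 and 5.97 in WT, and was detected on 1 KO array and 3 WT arrays. Its difference was -0.79 (SE 0.31, limma adjusted p = 0.582, unadjusted p = 0.0315), and -0.26 without background correction. The genotypes overlapped on both probes, and KO 1 was the lowest array on each.

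KO 1 was the highest array on all 3 Hsd11b1 probes. ILMN_1214998 had 10.34 on KO 1 and 8.43 to 9.01 on the other arrays, and ILMN_2774160 had 10.19 on KO 1 and 8.25 to 8.93 on the others.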
